A study of Homo sapiens with 12 samples.

Results

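These results concern 38 genes named in the literature as targets of the transcription factor p53, other than the CDK inhibitor p21 (CDKN1A) and the ubiquitin ligase MDM2. They were taken as a list of gene symbols, each of which matched 1 Ensembl gene, and so make up 38 of the 57773 gene identifiers measured. The list and its role groups were chosen with earlier results of these data known, so counts over them are a description. The cells were RPE1, an immortalised human retinal pigment epithelial line. They were transfected for 24 h with siRNA against Anillin, a scaffold protein of the contractile ring that divides the cell, or with a non-targeting siRNA. Living cells were then stained with the DNA dye Hoechst and sorted by DNA content. The 4 groups, of 3 RNA-seq libraries each, are called Anillin 4N, Anillin 2N, control 4N and control 2N, where control means the non-targeting siRNA. All groups went through transfection reagent, dye and sorting, and no untransfected cells are among them. The 4N gate takes any cell with that DNA content, so it can hold cells in G2 or mitosis as well as G1 cells with a doubled genome, and the labels do not separate these.

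p53 is a DNA-binding protein that MDM2 keeps at low levels in unstressed cells. DNA damage and many other stresses stabilise it, and it then binds response elements near its target genes and raises their transcription. Its targets act in cell-cycle arrest, DNA repair, cell death, metabolism and autophagy. Loss of a division after the genome has been copied, as when cytokinesis fails, is one of the conditions under which p53 has been studied in this cell line.

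Values are RPKM, reads scaled to gene length and library depth, as deposited by the authors. The length is that of the whole gene, introns included, so a level can be compared between groups for 1 gene but not between genes. Changes are log2 differences of group means. On the RPKM scale they are differences of log2(RPKM + 0.5), tested with limma-trend, and this understates changes of genes with low values. On the read scale they come from limma-voom on the whole reads recovered from the RPKM. Adjusted p-values used the Benjamini-Hochberg correction across every tested gene, errors of changes are SE, errors of levels are SD over 3 libraries (n = 3 in each group), "between the 4N groups" means Anillin 4N minus control 4N and "between the 2N groups" Anillin 2N minus control 2N, and "rose", "fell", "higher" and "lower" in a count mean an adjusted p under 0.05. All levels are relative to the reads of the library, so a larger share of responding cells and more RNA per responding cell cannot be told apart. Replicates are labelled biological, but nothing says that each was its own culture, so every p-value here speaks of library-to-library spread that may be technical.

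The libraries held between 17412742 and 61760451 recovered reads in genes, and the shallowest were replicates 1 and 2 of Anillin 4N. The Anillin gene (ANLN) averaged 0.0848 RPKM in Anillin 4N cells, 0.0609 in Anillin 2N, 7.95 in control 4N and 1.60 in control 2N. It changed by -3.85 on the log2 RPKM scale between the 4N groups and by -1.89 between the 2N groups. Both changes are understated by the added 0.5 RPKM, and Anillin and control libraries did not overlap. The summed level of 8 mitotic genes was 29.9 to 32.1 RPKM in Anillin 4N cells, 9.58 to 10.1 in Anillin 2N, 193 to 219 in control 4N and 24.8 to 36.7 in control 2N. Levels of mitotic genes thus moved with the groups, and their part in the results below was not tested. Of 10 markers of retinal pigment epithelium 1, OTX2, passed the filter and TTR was at 0 in every library, while 2 of 4 general epithelial markers passed. The summed level of those 4, mostly KRT18, was 94.4 to 104 RPKM in Anillin 4N cells, 108 to 121 in Anillin 2N, 117 to 120 in control 4N and 131 to 148 in control 2N, and the part of this difference in the results was not tested. Of 4 blood cell markers CD68 passed the filter and CD3E and HBB were at 0, with summed levels of 12.9 to 14.7 RPKM in Anillin 4N cells, 12.6 to 13.4 in Anillin 2N, 16.6 to 17.3 in control 4N and 16.6 to 16.8 in control 2N.

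Most of the 38 genes were highest in cells sorted at 4N after Anillin siRNA. On the RPKM scale, where 29 of them passed the filter of at least 0.5 RPKM in at least 3 libraries, 24 rose in Anillin 4N against control 4N and 5 did not pass the test. Of all 12892 genes tested, 20.0% were called higher and 31.5% lower. None of the 29 was called lower, and none had an unadjusted p under 0.05 in that direction. On the read scale, where all 38 could be tested, 33 rose and 1 fell (APAF1, a call held in 4 of 12 fits that left out 1 library), against 20.8% and 23.6% of 22404 genes. The median change of the 38 genes was 0.82 on the read scale, beside 0.01 over all genes tested. Of the 29 genes, 5 reached the RPKM filter in some groups only, SPATA18 through Anillin 4N alone, APAF1 through control 4N alone, and DDB2, TIGAR and CMBL through 2 or 3 groups, so counts over the 29 are given as a description. Scaling the libraries to a common distribution (quantile scaling) changed the split of all genes to 3505 higher and 3182 lower, against 2582 and 4056 with the deposited scaling, and 26 of the 29 genes then rose.

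Within the Anillin siRNA culture the 4N cells also stood above the 2N cells. In Anillin 4N against Anillin 2N, 23 of the 29 genes rose on the RPKM scale and none fell, also at an unadjusted p under 0.05, where 2.61% of all genes were called higher and 0.970% lower. By recovered reads 30 of the 38 rose and none fell, also at an unadjusted p under 0.05, against 2.57% and 1.47%. In Anillin 2N against control 2N, 23 of the 29 rose and PLK2 fell, against 11.4% and 17.1% of all genes. By recovered reads 29 of 38 rose and 3 fell (PLK2, GADD45A and KITLG), against 12.4% and 16.2%. Quantile scaling changed the split of all genes in that comparison to 1951 higher and 1900 lower, against 1473 and 2209, and 25 of the 29 genes then rose.

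The control culture gave a mixed picture. In control 4N against control 2N, 8 of the 29 genes rose and 4 fell on the RPKM scale (27.6% and 13.8%). Of all genes 23.9% and 13.2% did, so both shares were near the background. By recovered reads 9 of 38 rose and 8 fell, against 19.0% and 17.3%. The 4 that fell on the RPKM scale were PLK2, GADD45A, ZMAT3 and PLK3. With quantile scaling 6 rose and 6 fell, and all genes split 2096 higher to 2465 lower, against 3079 and 1703. When the 2 control groups were fitted alone 2 fell, as also without control 4N replicate 1. By recovered reads 5 fell without control 4N replicate 1 or replicate 3, and 4 fell without control 2N replicate 3. In Anillin 4N against control 2N, 26 of the 29 rose and PLK2 fell, against 14.1% and 15.8% of all genes, and on the read scale 34 of 38 rose and 1 fell (PLK2), against 12.6% and 14.8%. Without control 2N replicate 1 the number that fell was 3 on the read scale.

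The interaction asks whether the signed effect of Anillin siRNA was more positive among 4N cells than among 2N cells. It was past the threshold and positive for 19 of the 29 genes and negative for none on the RPKM scale, against 4.93% and 10.7% of all genes. At an unadjusted p under 0.05, 2 were negative (POLH and APAF1). On the read scale it was positive for 28 of 38 and negative for 1 (APAF1), against 6.36% and 8.19%. That of APAF1 was lost without Anillin 4N replicate 2 (adjusted p = 0.0564), and without Anillin 2N replicate 1 or control 2N replicate 1 the interaction was negative for 2 genes, the other being POLH (0.0288 and 0.0457). With quantile scaling all genes split 781 positive to 1099 negative, against 636 and 1383, and 1 of the 29 was then negative. Counting libraries instead, 31 of the 38 genes had all 3 Anillin 4N libraries above all other libraries, as 3.21% of genes with enough reads did. Of the 38, 23 were ordered without overlap as Anillin 4N above Anillin 2N above both control groups, as were 298 of 22404 genes (1.33%).

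**Figure D1:**
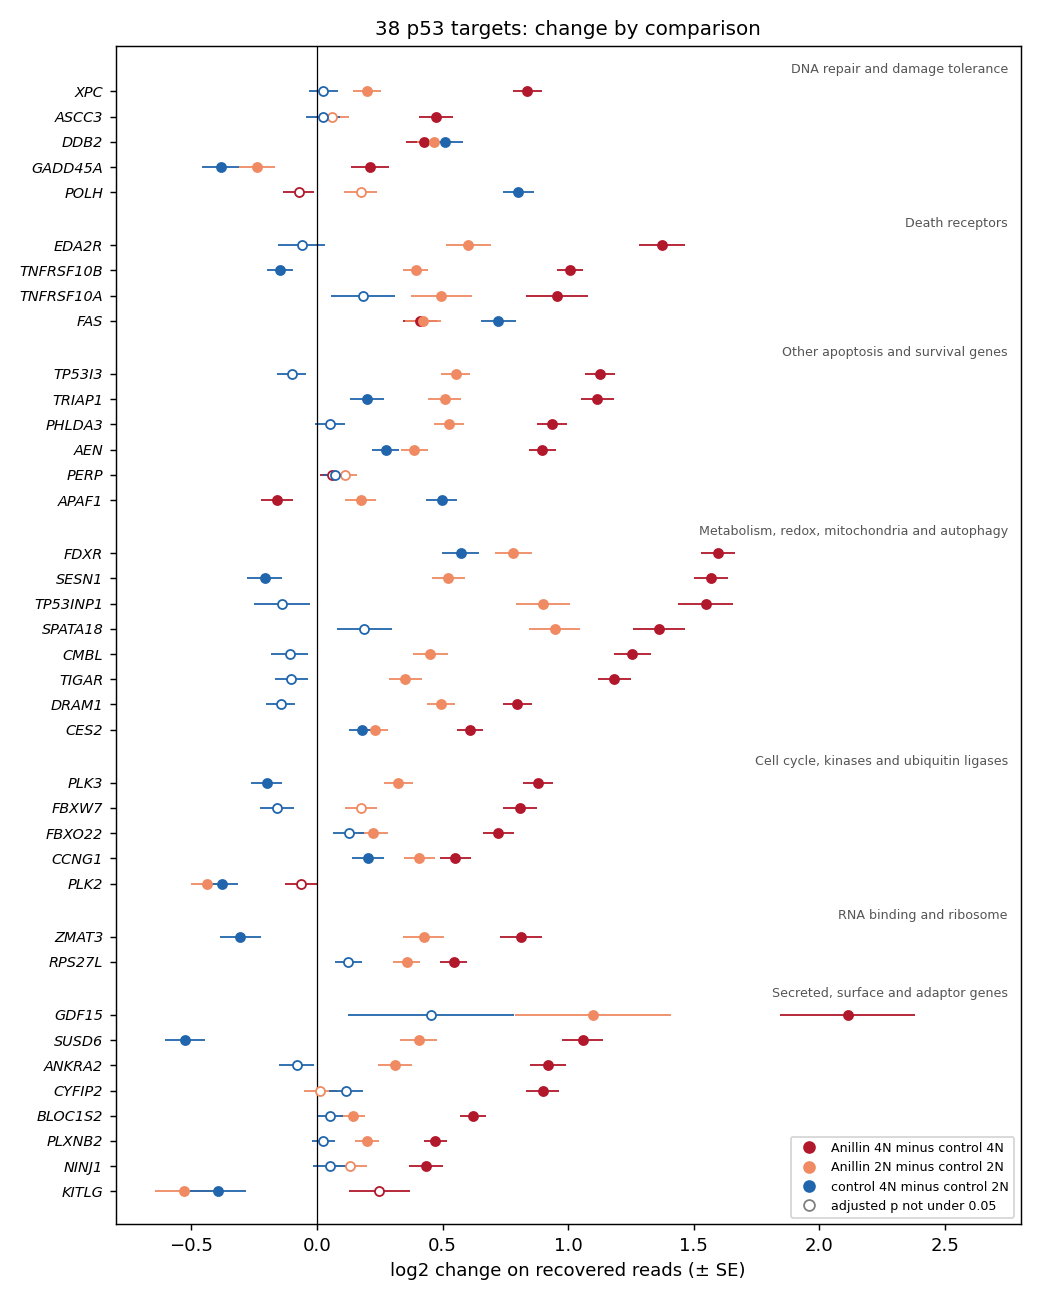
Log2 change on the read scale (x axis, ± SE) of the 38 genes, grouped by role, for Anillin 4N minus control 4N (dark red), Anillin 2N minus control 2N (orange) and control 4N minus control 2N (blue), with open symbols where the adjusted p was not under 0.05. The dark red points lie to the right of the orange points for 33 of the 38 genes, and the blue points scatter around 0.

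RefSeq promoter windows (GRCh38.p14, 250 bases before to 50 after the annotated start) were found for 30 of the 38 genes. They were searched on both strands, which for this palindromic element are the same search, for the p53 response element, here a pair of 10-base half-sites with no spacer and at most 2 mismatches outside the fixed C and G of each half-site. It was found in a window of 3 of these 30 genes (10.0%) and of 98 of the 27305 genes with a window (0.359%), where a gene with several annotated starts has a window for each. The matching stretches are shown because they are the letters p53 is known to bind, with the match in capitals and flanking bases in lower case. That of DDB2 has 1 mismatch, lies on the plus strand at chr11:47214969-47214988 and begins 5 bases before the more downstream of its annotated starts. This is inside the gene span used here, which begins at 47214465.
DDB2: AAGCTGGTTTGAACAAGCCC
That of AEN has 2 mismatches, and its stretch lies on the plus strand at chr15:88621296-88621335, with the match beginning 34 bases before the start.
AEN: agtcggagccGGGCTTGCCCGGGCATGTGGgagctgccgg
That of FAS has 2 mismatches, and its stretch lies on the plus strand at chr10:88991299-88991338. The match begins 122 bases before the most downstream of its annotated starts. It lies downstream of the other FAS windows and inside the gene span used here, which begins at 88990582.
FAS: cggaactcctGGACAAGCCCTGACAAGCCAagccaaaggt
A match describes letters in the window and not binding. The search covered nothing outside these windows, so introns and distant elements were searched only where a window reached them.

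Among 5 genes of DNA repair and damage tolerance, XPC, DDB2 and, on the read scale, ASCC3 rose in Anillin 4N against control 4N, while POLH did not pass on either scale. Of all genes, 20.8% rose in that comparison on the read scale. XPC, which recognises bulky lesions for nucleotide excision repair, had 2.51, 2.63 and 2.84 RPKM in Anillin 4N cells, 1.63, 1.68 and 1.75 in Anillin 2N, 1.39, 1.56 and 1.51 in control 4N, and 1.45, 1.49 and 1.46 in control 2N. Anillin 4N stood above Anillin 2N and both above the controls, which overlapped. XPC rose by 0.67 ± 0.04 on the log2 RPKM scale between Anillin 4N and control 4N (adjusted p = 1.69e-06) and by 0.15 ± 0.04 between Anillin 2N and control 2N (adjusted p = 0.0277). The second call was lost without Anillin 2N replicate 2 or 3 (adjusted p = 0.0682 and 0.0889) or control 2N replicate 1 or 3 (0.0806 and 0.0723). ASCC3, a DNA helicase subunit that acts in alkylation repair, had 117, 114 and 123 reads scaled to library depth alone (RPM) in Anillin 4N, 78.4, 85.7 and 101 in Anillin 2N, 83.4, 85.7 and 85.8 in control 4N, and 83.9, 87.0 and 80.6 in control 2N. Only Anillin 4N stood apart, and the other 3 groups overlapped. Its change on the read scale was 0.47 ± 0.07 between Anillin 4N and control 4N (adjusted p = 1.09e-05) and 0.06 ± 0.07 between Anillin 2N and control 2N (adjusted p = 0.562).

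DDB2 and POLH followed DNA content in both cultures. DDB2, the damage sensor whose promoter match is shown above, had 0.827, 0.826 and 0.873 RPKM in Anillin 4N cells, 0.603, 0.628 and 0.604 in Anillin 2N, 0.575, 0.656 and 0.644 in control 4N, and 0.426, 0.466 and 0.444 in control 2N. The Anillin 2N and control 4N libraries overlapped between the extremes. DDB2 did not reach the RPKM filter in control 2N, and by recovered reads it rose by 0.43 ± 0.07 between the 4N groups (adjusted p = 5.25e-05) and by 0.47 ± 0.07 between the 2N groups (adjusted p = 5.19e-05). Its interaction of -0.04 ± 0.10 on the read scale did not pass (adjusted p = 0.837). POLH, the DNA polymerase that copies past ultraviolet lesions, had 0.826, 0.876 and 0.880 RPKM in Anillin 4N cells, 0.546, 0.621 and 0.608 in Anillin 2N, 0.926, 0.896 and 0.906 in control 4N, and 0.551, 0.521 and 0.496 in control 2N. Both 4N groups were above both 2N groups, and Anillin 4N lay just below control 4N. POLH rose by 0.32 ± 0.04 in Anillin 4N against Anillin 2N (adjusted p = 0.00118) and by 0.46 ± 0.04 in control 4N against control 2N (adjusted p = 1.17e-05), and differed by -0.05 ± 0.04 between Anillin 4N and control 4N (adjusted p = 0.278). The change between Anillin 2N and control 2N, 0.09 ± 0.04, did not pass (adjusted p = 0.0867) but did without Anillin 2N replicate 1 (0.0387).

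GADD45A, a stress-induced gene that binds cell-cycle and repair proteins, went another way. It had 23.9, 28.1 and 26.9 RPKM in Anillin 4N cells, 24.8, 26.0 and 24.3 in Anillin 2N, 20.8, 25.3 and 21.9 in control 4N, and 26.9, 30.4 and 31.6 in control 2N. Control 2N was highest and overlapped with Anillin 4N only. GADD45A fell by 0.38 ± 0.09 on the log2 RPKM scale in control 4N against control 2N (adjusted p = 0.00744). Its change of 0.21 ± 0.09 in Anillin 4N against control 4N did not pass (adjusted p = 0.0677) but did without Anillin 4N replicate 1 (0.0338) or control 4N replicate 2 (0.0181). It passed on the read scale (0.0289), but not without Anillin 4N replicate 2 or 3 (0.127 and 0.101) or control 4N replicate 1 or 3 (0.129 and 0.105). The change of -0.24 ± 0.09 in Anillin 2N against control 2N likewise did not pass (adjusted p = 0.0707) but did without control 4N replicate 2 (0.0446) or control 2N replicate 1 (0.0437). It passed on the read scale (0.0178), but not without Anillin 2N replicate 1 or 3 (0.0563 and 0.0564) or control 2N replicate 3 (0.102). Its interaction of 0.45 ± 0.12 (adjusted p = 0.0368) was lost when any 1 library was left out other than Anillin 4N replicate 1, control 4N replicate 2 or control 2N replicate 1, with adjusted p between 0.0584 and 0.0892.

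The 4 genes grouped here as death receptors encode surface proteins whose ligands can start apoptosis or, for EDA2R, signalling of the ectodysplasin family. All 4 rose in Anillin 4N against control 4N, Anillin 4N against Anillin 2N and Anillin 2N against control 2N alike. In these comparisons 20.8%, 2.57% and 12.4% of all genes rose on the read scale. EDA2R had 1.56, 1.57 and 1.56 RPKM in Anillin 4N cells, 0.912, 0.995 and 0.960 in Anillin 2N, 0.517, 0.703 and 0.575 in control 4N, and 0.601, 0.745 and 0.581 in control 2N. The groups formed 3 steps, with the control groups overlapping on the lowest. EDA2R rose by 0.91 ± 0.07 on the log2 RPKM scale between the 4N groups (adjusted p = 3.20e-06) and by 0.35 ± 0.07 between the 2N groups (adjusted p = 0.00388). TNFRSF10B, the TRAIL receptor DR5, had 6.31, 6.54 and 6.75 RPKM in Anillin 4N cells, 4.47, 4.70 and 5.05 in Anillin 2N, 3.12, 3.39 and 3.23 in control 4N, and 3.51, 3.68 and 3.62 in control 2N. It made the same steps, with control 4N below control 2N. TNFRSF10B rose by 0.91 ± 0.05 on the log2 RPKM scale between the 4N groups (adjusted p = 3.15e-07) and by 0.35 ± 0.05 between the 2N groups (adjusted p = 0.000599). Its change of -0.13 ± 0.05 in control 4N against control 2N did not pass (adjusted p = 0.0517), but did without Anillin 2N replicate 1 or 3 (0.0387 and 0.0306) or control 4N replicate 2 (0.0411). It passed on the read scale (0.0314), but not without control 4N replicate 1 or 3 (0.129 and 0.0866) or control 2N replicate 2 or 3 (0.0684 and 0.0699).

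TNFRSF10A, the other TRAIL receptor that carries a death domain (DR4), had 7.69, 6.85 and 8.43 RPM in Anillin 4N, 4.66, 4.90 and 5.82 in Anillin 2N, 4.68, 3.95 and 3.72 in control 4N, and 3.69, 3.05 and 3.72 in control 2N, from 86 to 331 reads. Anillin 4N stood above the rest. It rose by 0.95 ± 0.12 on the read scale in Anillin 4N against control 4N (adjusted p = 2.74e-06) and by 0.64 ± 0.12 in Anillin 4N against Anillin 2N (adjusted p = 0.00221), a call lost without Anillin 4N replicate 3 (0.0588). Its interaction, 0.46 ± 0.17, did not pass (adjusted p = 0.0847) but did without control 2N replicate 2 (0.0432). The TRAIL receptor genes are related in sequence, and how reads shared between them were counted is not given in the sources used here. FAS, the receptor of FAS ligand, had 3.31, 3.74 and 3.71 RPKM in Anillin 4N cells, 2.04, 2.21 and 2.38 in Anillin 2N, 2.78, 2.68 and 2.66 in control 4N, and 1.76, 1.71 and 1.49 in control 2N. Each culture had its 4N cells above its 2N cells and no 2 groups overlapped. FAS rose by 0.35 ± 0.06 on the log2 RPKM scale between the 4N groups (adjusted p = 0.00115) and by 0.33 ± 0.06 between the 2N groups (adjusted p = 0.00378), and by 0.58 ± 0.06 in control 4N against control 2N (adjusted p = 0.000104). Its interaction of 0.01 ± 0.09 did not pass (adjusted p = 0.934).

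Of 6 other genes of apoptosis and survival, TP53I3, TRIAP1, PHLDA3 and AEN rose in all of the same 3 comparisons. The shares of all genes are again 20.8%, 2.57% and 12.4% on the read scale. TP53I3 (PIG3), an oxidoreductase linked to reactive oxygen species, had 14.4, 16.3 and 15.7 RPKM in Anillin 4N cells, 11.8, 11.1 and 10.4 in Anillin 2N, 6.77, 7.28 and 7.13 in control 4N, and 7.50, 7.82 and 7.48 in control 2N. The Anillin groups were separate from each other and from the controls, and control 4N was lowest. TP53I3 rose by 1.08 ± 0.06 on the log2 RPKM scale between the 4N groups (adjusted p = 4.28e-07) and by 0.52 ± 0.06 between the 2N groups (adjusted p = 0.000250). TRIAP1, a mitochondrial lipid-transfer protein that restrains apoptosis, had 18.9, 20.6 and 20.2 RPKM in Anillin 4N cells, 10.9, 11.7 and 11.8 in Anillin 2N, 9.69, 9.51 and 8.56 in control 4N, and 8.49, 7.49 and 7.97 in control 2N. All 4 groups were separate, in that order. TRIAP1 rose by 1.07 ± 0.06 on the log2 RPKM scale between the 4N groups (adjusted p = 6.35e-07) and by 0.50 ± 0.06 between the 2N groups (adjusted p = 0.000420). Its rise of 0.20 ± 0.06 in control 4N against control 2N (adjusted p = 0.0280) was lost without control 4N replicate 1 or 2 (0.105 and 0.0763), without control 2N replicate 2 or 3 (0.0989 and 0.0610) and with quantile scaling (0.482).

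PHLDA3, which blocks membrane recruitment of the kinase AKT, had 26.3, 30.5 and 28.8 RPKM in Anillin 4N cells, 21.3, 20.5 and 20.2 in Anillin 2N, 14.5, 14.4 and 15.8 in control 4N, and 13.9, 13.9 and 15.2 in control 2N. The control groups overlapped, and both Anillin groups lay above them. PHLDA3 rose by 0.91 ± 0.06 on the log2 RPKM scale between the 4N groups (adjusted p = 1.83e-06) and by 0.51 ± 0.06 between the 2N groups (adjusted p = 0.000364). AEN, an apoptosis-enhancing nuclease whose promoter match is shown above, averaged 6.76 ± 0.169 RPKM in Anillin 4N cells, 3.96 ± 0.199 in Anillin 2N, 3.64 ± 0.0379 in control 4N and 2.998 ± 0.108 in control 2N. Anillin 4N was far above the other groups, which were also separate from one another. AEN rose by 0.81 ± 0.04 on the log2 RPKM scale between the 4N groups (adjusted p = 2.11e-07) and by 0.24 ± 0.04 in control 4N against control 2N (adjusted p = 0.00112).

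PERP and APAF1 did not follow. PERP, a tetraspan membrane protein of desmosomes and apoptosis, averaged 6.89 ± 0.306 RPKM in Anillin 4N cells, 6.79 ± 0.121 in Anillin 2N, 6.60 ± 0.236 in control 4N and 6.30 ± 0.207 in control 2N. It passed in no comparison on the RPKM or the read scale. Its change of 0.06 ± 0.04 in Anillin 4N against control 4N passed with quantile scaling (adjusted p = 0.0179, against 0.267). Its change of 0.12 ± 0.04 in Anillin 4N against control 2N (adjusted p = 0.0517) passed without control 4N replicate 2 (0.0492) or control 2N replicate 2 (0.0449). APAF1, the core of the apoptosome, had 0.480, 0.431 and 0.486 RPKM in Anillin 4N cells, 0.389, 0.424 and 0.450 in Anillin 2N, 0.533, 0.510 and 0.525 in control 4N, and 0.354, 0.385 and 0.374 in control 2N. Control 4N was highest, above every Anillin 4N library. It reached the RPKM filter through control 4N alone, so its tests are given by recovered reads. By these it rose by 0.50 ± 0.06 in control 4N against control 2N (adjusted p = 3.11e-06) and by 0.34 ± 0.06 in Anillin 4N against control 2N (adjusted p = 0.000568). Between the 2N groups it rose by 0.17 ± 0.06 (adjusted p = 0.0427). That call was lost without Anillin 2N replicate 2 or 3 or control 2N replicate 1 or 3 (0.0791 to 0.167). The same call was lost without Anillin 4N replicate 1 (0.0531) or control 4N replicate 3 (0.0552). The change of APAF1 between the 4N groups was -0.16 ± 0.06 (adjusted p = 0.0497). This was lost when any 1 library was left out other than replicate 3 of Anillin 4N, replicates 1 or 3 of Anillin 2N or replicate 2 of control 2N (0.0502 to 0.218).

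**Figure D2:**
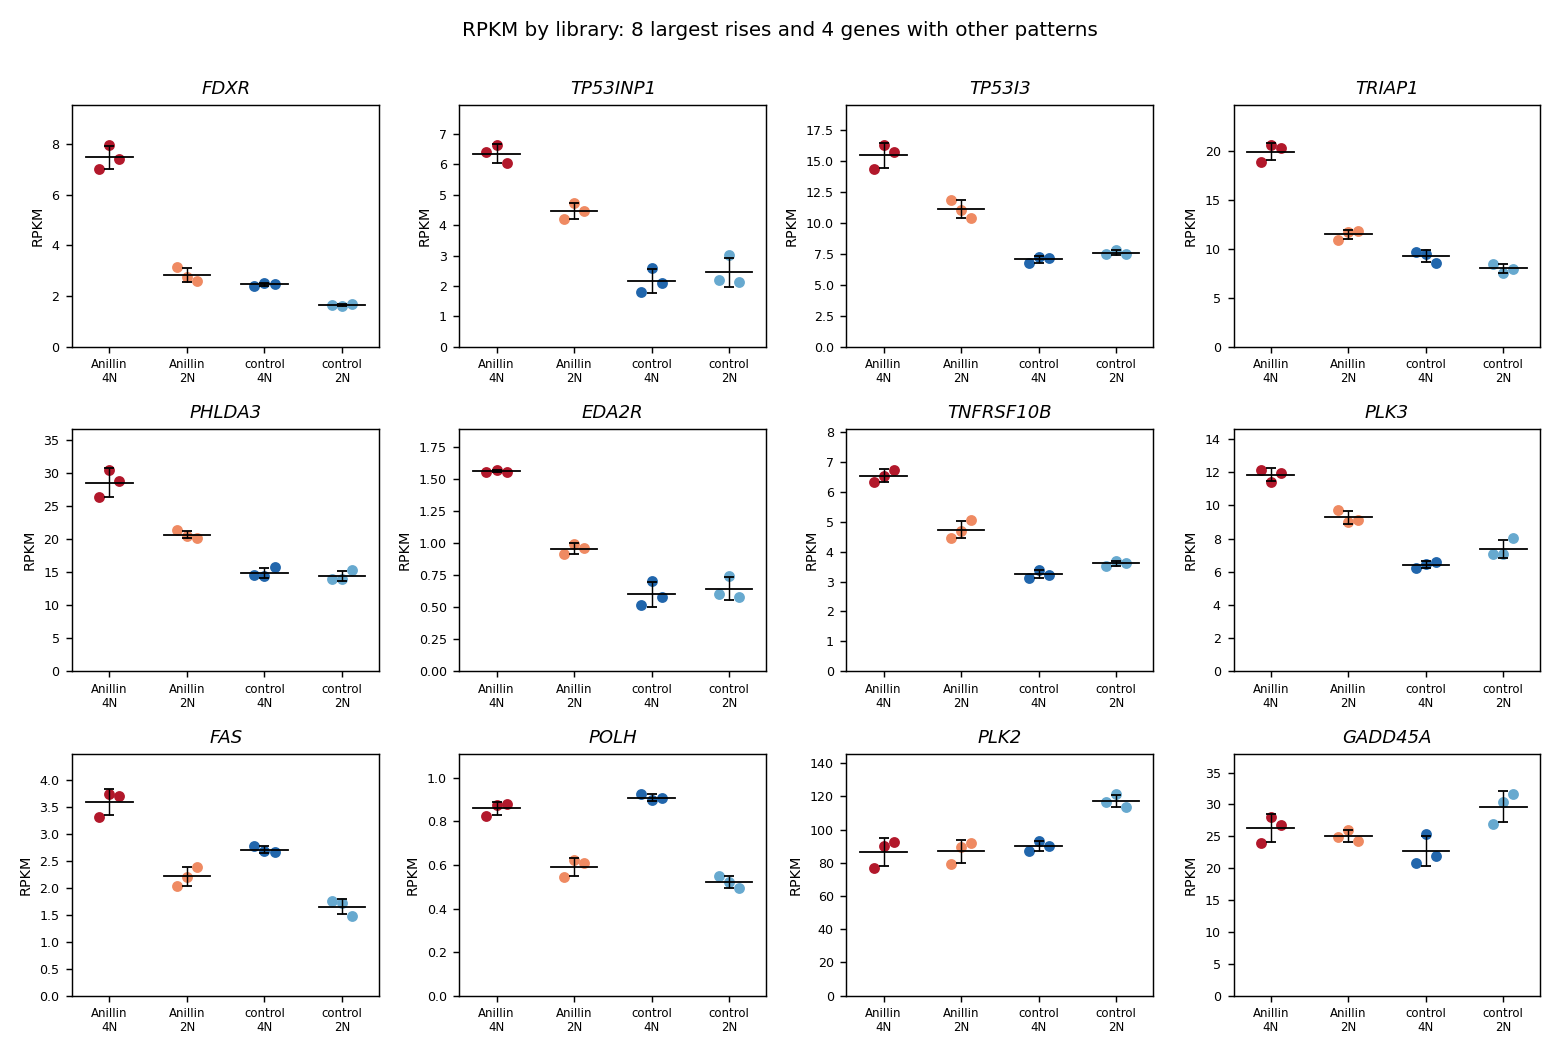
RPKM in each library (points), group mean (line) and SD (bars, n = 3) for the 8 genes with the largest rise on the RPKM scale in Anillin 4N against control 4N and for 4 genes with other patterns, the groups running from Anillin 4N at the left to control 2N at the right. The first 8 panels fall in steps from Anillin 4N to Anillin 2N to the controls, FAS and POLH separate 4N from 2N in both cultures, and PLK2 and GADD45A are highest in control 2N.

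The 8 genes of metabolism, redox balance, mitochondria and autophagy had the highest median change of the role groups between the 4N groups on the read scale. On the log2 RPKM scale they did not, with a median of 0.71 over the 6 genes tested, against 0.91 for the 3 tested of the death receptor group. Of the 6, SPATA18, TIGAR and CMBL reached the RPKM filter through Anillin groups alone. All 8 rose on the read scale in Anillin 4N against control 4N and in Anillin 2N against control 2N, with median changes of 1.31 and 0.51. Of all genes 20.8% and 12.4% did. FDXR, the reductase that passes electrons to mitochondrial ferredoxins, had 7.02, 7.95 and 7.41 RPKM in Anillin 4N cells, 3.15, 2.73 and 2.60 in Anillin 2N, 2.38, 2.52 and 2.47 in control 4N, and 1.66, 1.62 and 1.68 in control 2N. All 4 groups were separate, and Anillin 4N stood far from the rest. FDXR rose by 1.43 ± 0.06 on the log2 RPKM scale between the 4N groups (adjusted p = 9.98e-08), by 0.63 ± 0.06 between the 2N groups (adjusted p = 0.000125) and by 0.46 ± 0.06 in control 4N against control 2N (adjusted p = 0.000364). SESN1, a sestrin that restrains the growth kinase mTORC1, had 42.8, 45.3 and 43.3 RPM in Anillin 4N, 23.2, 25.3 and 25.2 in Anillin 2N, 14.1, 15.6 and 14.3 in control 4N, and 16.2, 18.3 and 16.9 in control 2N. The groups were again separate, with control 4N lowest. SESN1 rose by 1.57 ± 0.07 on the read scale between the 4N groups (adjusted p = 6.28e-13) and by 0.52 ± 0.07 between the 2N groups (adjusted p = 6.02e-06), and fell by 0.21 ± 0.07 in control 4N against control 2N (adjusted p = 0.0270). That fall did not hold without replicates 1 or 3 of control 4N (adjusted p = 0.0818 and 0.116) or replicates 2 or 3 of control 2N (0.0765 and 0.0533).

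TP53INP1, a stress protein that acts in autophagy and in p53 signalling, had 6.39, 6.64 and 6.04 RPKM in Anillin 4N cells, 4.20, 4.74 and 4.45 in Anillin 2N, 1.81, 2.59 and 2.10 in control 4N, and 2.21, 3.003 and 2.13 in control 2N. The control groups overlapped below both Anillin groups. TP53INP1 rose by 1.37 ± 0.12 on the log2 RPKM scale between the 4N groups (adjusted p = 1.21e-05) and by 0.76 ± 0.12 between the 2N groups (adjusted p = 0.00159). In Anillin 4N against Anillin 2N its change of 0.47 ± 0.12 did not pass (adjusted p = 0.0776) although the libraries were separate, and it passed on the read scale (0.00732) and without control 2N replicate 2 (0.0282). Its interaction of 0.61 ± 0.17 (adjusted p = 0.0429) was lost when any 1 library was left out other than control 4N replicate 2, control 2N replicate 1 or control 2N replicate 3, with adjusted p between 0.0612 and 0.0954. SPATA18, which takes part in the breakdown of damaged mitochondrial proteins, averaged 0.568 ± 0.0255 RPKM in Anillin 4N cells, 0.376 ± 0.0327 in Anillin 2N, 0.218 ± 0.0339 in control 4N and 0.199 ± 0.0264 in control 2N. It reached the RPKM filter through Anillin 4N alone, the group where it is high, so its tests are given by recovered reads. By these it rose by 1.36 ± 0.10 between the 4N groups (adjusted p = 2.33e-09), by 0.61 ± 0.09 in Anillin 4N against Anillin 2N (adjusted p = 0.000410) and by 0.95 ± 0.10 between the 2N groups (adjusted p = 1.10e-06).

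TIGAR, a phosphatase that slows glycolysis, averaged 1.02 ± 0.0248 RPKM in Anillin 4N cells, 0.616 ± 0.0261 in Anillin 2N, 0.450 ± 0.0215 in control 4N and 0.481 ± 0.0184 in control 2N. CMBL, a carboxymethylenebutenolidase that activates prodrugs, averaged 1.08 ± 0.0558 RPKM in Anillin 4N cells, 0.659 ± 0.0573 in Anillin 2N, 0.448 ± 0.0239 in control 4N and 0.488 ± 0.0146 in control 2N. Both formed steps with the control groups at the bottom, and both reached the RPKM filter through the Anillin groups alone. By recovered reads they rose between the 4N groups by 1.18 ± 0.07 (TIGAR, adjusted p = 2.52e-11) and 1.26 ± 0.07 (CMBL, adjusted p = 4.52e-11). CES2, a carboxylesterase, averaged 5.75 ± 0.198 RPKM in Anillin 4N cells, 3.87 ± 0.182 in Anillin 2N, 3.76 ± 0.00654 in control 4N and 3.32 ± 0.0563 in control 2N. It rose by 0.55 ± 0.04 on the log2 RPKM scale between the 4N groups (adjusted p = 1.71e-06), and its rise of 0.16 ± 0.04 in control 4N against control 2N (adjusted p = 0.00814) was lost with quantile scaling (0.297). DRAM1, a lysosomal membrane protein of autophagy, had 52.5, 53.3 and 59.8 RPM in Anillin 4N, 48.3, 50.1 and 51.2 in Anillin 2N, 31.5, 32.4 and 31.9 in control 4N, and 35.3, 36.1 and 34.7 in control 2N. The 2 Anillin groups lay close together, and both were far above the controls. DRAM1 rose by 0.80 ± 0.06 on the read scale between the 4N groups (adjusted p = 1.42e-09) and by 0.49 ± 0.06 between the 2N groups (adjusted p = 1.76e-06). Its interaction of 0.30 ± 0.08 (adjusted p = 0.0152) was lost without Anillin 4N replicate 3 (0.0705), and without that library its change of -0.14 ± 0.06 in control 4N against control 2N passed (adjusted p = 0.0405, against 0.0584).

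Among 5 genes of the cell cycle, kinases and ubiquitin ligases, PLK3, FBXW7, FBXO22 and CCNG1 rose in Anillin 4N against control 4N and PLK2 did not pass. The share of all genes that rose there was 20.8% on the read scale. PLK3, a stress-responsive polo-like kinase, had 12.2, 11.4 and 12.0 RPKM in Anillin 4N cells, 9.71, 8.98 and 9.12 in Anillin 2N, 6.19, 6.49 and 6.61 in control 4N, and 7.08, 7.07 and 8.03 in control 2N. No 2 groups overlapped, and control 4N was lowest. PLK3 rose by 0.83 ± 0.05 on the log2 RPKM scale between the 4N groups (adjusted p = 1.43e-06) and by 0.31 ± 0.05 between the 2N groups (adjusted p = 0.00253). Its fall of 0.19 ± 0.05 in control 4N against control 2N (adjusted p = 0.0231) was lost without control 4N replicate 1 (0.0878) or control 2N replicate 3 (0.0646). Its relative PLK2 had 77.0, 89.9 and 92.4 RPKM in Anillin 4N cells, 79.1, 89.6 and 91.7 in Anillin 2N, 86.9, 93.2 and 90.3 in control 4N, and 116, 121 and 114 in control 2N. Control 2N stood above all other libraries, and the other 3 groups overlapped. PLK2 fell by 0.43 ± 0.08 on the log2 RPKM scale in Anillin 2N against control 2N (adjusted p = 0.00245) and by 0.38 ± 0.08 in control 4N against control 2N (adjusted p = 0.00388), and differed by -0.06 ± 0.08 between Anillin 4N and control 4N (adjusted p = 0.508). Its interaction of 0.37 ± 0.11 (adjusted p = 0.0445) was lost when any 1 library was left out other than Anillin 4N replicate 1 or Anillin 2N replicate 3, with adjusted p between 0.0540 and 0.106.

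FBXW7, the substrate-binding part of a ubiquitin ligase that targets cyclin E and MYC, had 27.9, 28.7 and 28.2 RPM in Anillin 4N, 19.4, 21.2 and 20.8 in Anillin 2N, 14.5, 16.4 and 17.1 in control 4N, and 18.3, 17.4 and 18.2 in control 2N. No 2 groups overlapped. FBXW7 rose by 0.81 ± 0.07 on the read scale between the 4N groups (adjusted p = 1.24e-08), and its change of 0.17 ± 0.07 between the 2N groups did not pass (adjusted p = 0.0511) but did without Anillin 2N replicate 1 (0.0347) or control 4N replicate 1 (0.0405). FBXO22, an F-box protein of another such ligase, averaged 1.38 ± 0.0483 RPKM in Anillin 4N cells, 0.895 ± 0.00903 in Anillin 2N, 0.835 ± 0.0485 in control 4N and 0.773 ± 0.0417 in control 2N. Anillin 4N was apart, and the other groups lay close together. FBXO22 rose by 0.50 ± 0.04 on the log2 RPKM scale between the 4N groups (adjusted p = 3.10e-06), while its rise of 0.13 ± 0.04 between the 2N groups (adjusted p = 0.0220) was lost without Anillin 2N replicate 1 or 2 (0.0623 and 0.0561) or control 2N replicate 1 or 3 (0.0542 and 0.0802). CCNG1, cyclin G1, averaged 30.1 ± 1.25 RPKM in Anillin 4N cells, 23.6 ± 1.25 in Anillin 2N, 20.5 ± 1.37 in control 4N and 17.9 ± 1.46 in control 2N. It rose by 0.54 ± 0.07 on the log2 RPKM scale between the 4N groups (adjusted p = 0.000133). Its rise of 0.34 ± 0.07 in Anillin 4N against Anillin 2N (adjusted p = 0.0275) was lost when any 1 of those 6 libraries was left out, with adjusted p between 0.0557 and 0.108, and its change of 0.19 ± 0.07 in control 4N against control 2N (adjusted p = 0.0556) passed without control 2N replicate 2 (0.0290).

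The 2 genes of RNA binding and the ribosome both rose between the 4N groups and between the 2N groups, where 20.8% and 12.4% of all genes rose on the read scale. ZMAT3, an RNA-binding protein that regulates splicing, had 2.89, 2.69 and 2.71 RPKM in Anillin 4N cells, 2.52, 2.66 and 2.64 in Anillin 2N, 1.41, 1.71 and 1.59 in control 4N, and 1.83, 2.33 and 1.74 in control 2N. No 2 groups overlapped, with the Anillin groups close together and above both controls. ZMAT3 rose by 0.66 ± 0.08 on the log2 RPKM scale between the 4N groups (adjusted p = 0.000105) and by 0.34 ± 0.08 between the 2N groups (adjusted p = 0.0127), and the call between the 2N groups was lost without control 2N replicate 1 (0.0503). Its fall of 0.25 ± 0.08 in control 4N against control 2N (adjusted p = 0.0386) was lost when any 1 library was left out other than Anillin 4N replicate 1, control 4N replicate 2, control 2N replicate 1 or control 2N replicate 3, with adjusted p between 0.0502 and 0.141, and it shrank to -0.15 without control 2N replicate 2. RPS27L, which differs little in sequence from the ribosomal protein gene RPS27, averaged 6.96 ± 0.189 RPKM in Anillin 4N cells, 5.61 ± 0.159 in Anillin 2N, 4.78 ± 0.242 in control 4N and 4.39 ± 0.283 in control 2N. It rose by 0.50 ± 0.05 on the log2 RPKM scale between the 4N groups (adjusted p = 2.55e-05) and by 0.32 ± 0.05 between the 2N groups (adjusted p = 0.00134). Its rise of 0.29 ± 0.05 in Anillin 4N against Anillin 2N (adjusted p = 0.0124) did not hold without replicate 2 of Anillin 4N (0.0590) or replicate 3 of Anillin 2N (0.0523).

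Of 8 secreted, surface and adaptor genes, 7 rose on the read scale in Anillin 4N against control 4N, where 20.8% of all genes did. GDF15, a secreted stress hormone, had 1.36, 1.22 and 1.58 RPM in Anillin 4N, 0.525, 0.612 and 0.355 in Anillin 2N, 0.334, 0.292 and 0.344 in control 4N, and 0.262, 0.142 and 0.276 in control 2N. Anillin 4N was far above the rest, but these levels rest on 4 to 62 reads per library. GDF15 rose by 2.11 ± 0.27 on the read scale between the 4N groups (adjusted p = 2.51e-06) and by 1.10 ± 0.31 between the 2N groups (adjusted p = 0.0112), a call lost without Anillin 2N replicate 2 (0.0596). SUSD6, a membrane protein, had 35.6, 32.6 and 36.1 RPM in Anillin 4N, 30.3, 31.5 and 35.3 in Anillin 2N, 14.5, 18.4 and 16.9 in control 4N, and 23.0, 25.6 and 24.2 in control 2N. The Anillin groups overlapped and control 4N was lowest. SUSD6 rose by 1.06 ± 0.08 on the read scale between the 4N groups (adjusted p = 3.78e-09) and by 0.41 ± 0.07 between the 2N groups (adjusted p = 0.000326), and fell by 0.53 ± 0.08 in control 4N against control 2N (adjusted p = 4.47e-05).

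CYFIP2, a subunit of the WAVE actin-regulating complex, had 64.7, 74.4 and 73.2 RPM in Anillin 4N, 35.4, 34.7 and 36.3 in Anillin 2N, 34.5, 38.9 and 39.9 in control 4N, and 35.7, 37.1 and 33.1 in control 2N. Only Anillin 4N stood apart, and the other 3 groups overlapped. CYFIP2 rose by 0.90 ± 0.07 on the read scale in Anillin 4N against control 4N (adjusted p = 1.46e-09) and by 1.001 ± 0.07 in Anillin 4N against Anillin 2N (adjusted p = 8.55e-09), with changes of 0.01 ± 0.07 between the 2N groups (adjusted p = 0.913) and 0.12 ± 0.07 in control 4N against control 2N (adjusted p = 0.191). KITLG, the ligand of the receptor KIT, had 22.9, 21.8 and 21.0 RPM in Anillin 4N, 17.8, 16.4 and 15.3 in Anillin 2N, 18.6, 19.5 and 16.9 in control 4N, and 19.7, 23.1 and 29.6 in control 2N. Control 2N was the most spread group and overlapped with Anillin 4N. KITLG fell by 0.53 ± 0.11 on the read scale in Anillin 2N against control 2N (adjusted p = 0.00144), and by 0.34 without control 2N replicate 3 (adjusted p = 0.00892). Its fall of 0.40 ± 0.11 in control 4N against control 2N (adjusted p = 0.00894) was lost without control 4N replicate 3 (0.0648) or control 2N replicate 3 (0.0806, when it was -0.20). Its change of 0.25 ± 0.12 between the 4N groups did not pass (adjusted p = 0.110), but did without control 2N replicate 1 (0.0414) or replicate 3 (0.0197), as did that of 0.38 ± 0.12 in Anillin 4N against Anillin 2N (adjusted p = 0.102, against 0.0298 and 0.0109).

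The remaining 4 genes of the group are given on the RPKM scale. ANKRA2, an ankyrin-repeat adaptor, averaged 2.33 ± 0.0985 RPKM in Anillin 4N cells, 1.59 ± 0.0999 in Anillin 2N, 1.22 ± 0.0856 in control 4N and 1.30 ± 0.0555 in control 2N, and rose by 0.72 ± 0.05 on the log2 RPKM scale between the 4N groups (adjusted p = 1.77e-06). BLOC1S2, a subunit of complexes that position lysosome-related organelles, averaged 6.002 ± 0.129 RPKM in Anillin 4N cells, 4.15 ± 0.176 in Anillin 2N, 3.91 ± 0.0674 in control 4N and 3.77 ± 0.147 in control 2N, and rose by 0.56 ± 0.04 (adjusted p = 1.86e-06). In both genes Anillin 4N was separate from every other group, but the rise of 0.12 ± 0.04 of BLOC1S2 between the 2N groups (adjusted p = 0.0367) was lost when any 1 library was left out other than replicates 1 or 3 of Anillin 4N, replicate 3 of Anillin 2N, control 4N replicate 2 or control 2N replicate 1, with adjusted p between 0.0509 and 0.134. PLXNB2, a semaphorin receptor, averaged 14.4 ± 0.211 RPKM in Anillin 4N cells, 11.7 ± 0.541 in Anillin 2N, 10.4 ± 0.503 in control 4N and 10.2 ± 0.0166 in control 2N, and rose by 0.45 ± 0.04 between the 4N groups (adjusted p = 1.76e-05). NINJ1, which ruptures the plasma membrane of dying cells, averaged 6.94 ± 0.323 RPKM in Anillin 4N cells, 5.43 ± 0.423 in Anillin 2N, 5.12 ± 0.282 in control 4N and 4.95 ± 0.388 in control 2N, and rose by 0.40 ± 0.07 (adjusted p = 0.000751). For NINJ1 the groups other than Anillin 4N overlapped, and its rise of 0.33 ± 0.07 in Anillin 4N against Anillin 2N (adjusted p = 0.0303) was lost when any 1 of those 6 libraries was left out other than Anillin 2N replicate 1, with adjusted p between 0.0529 and 0.120.

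**Figure D3:**
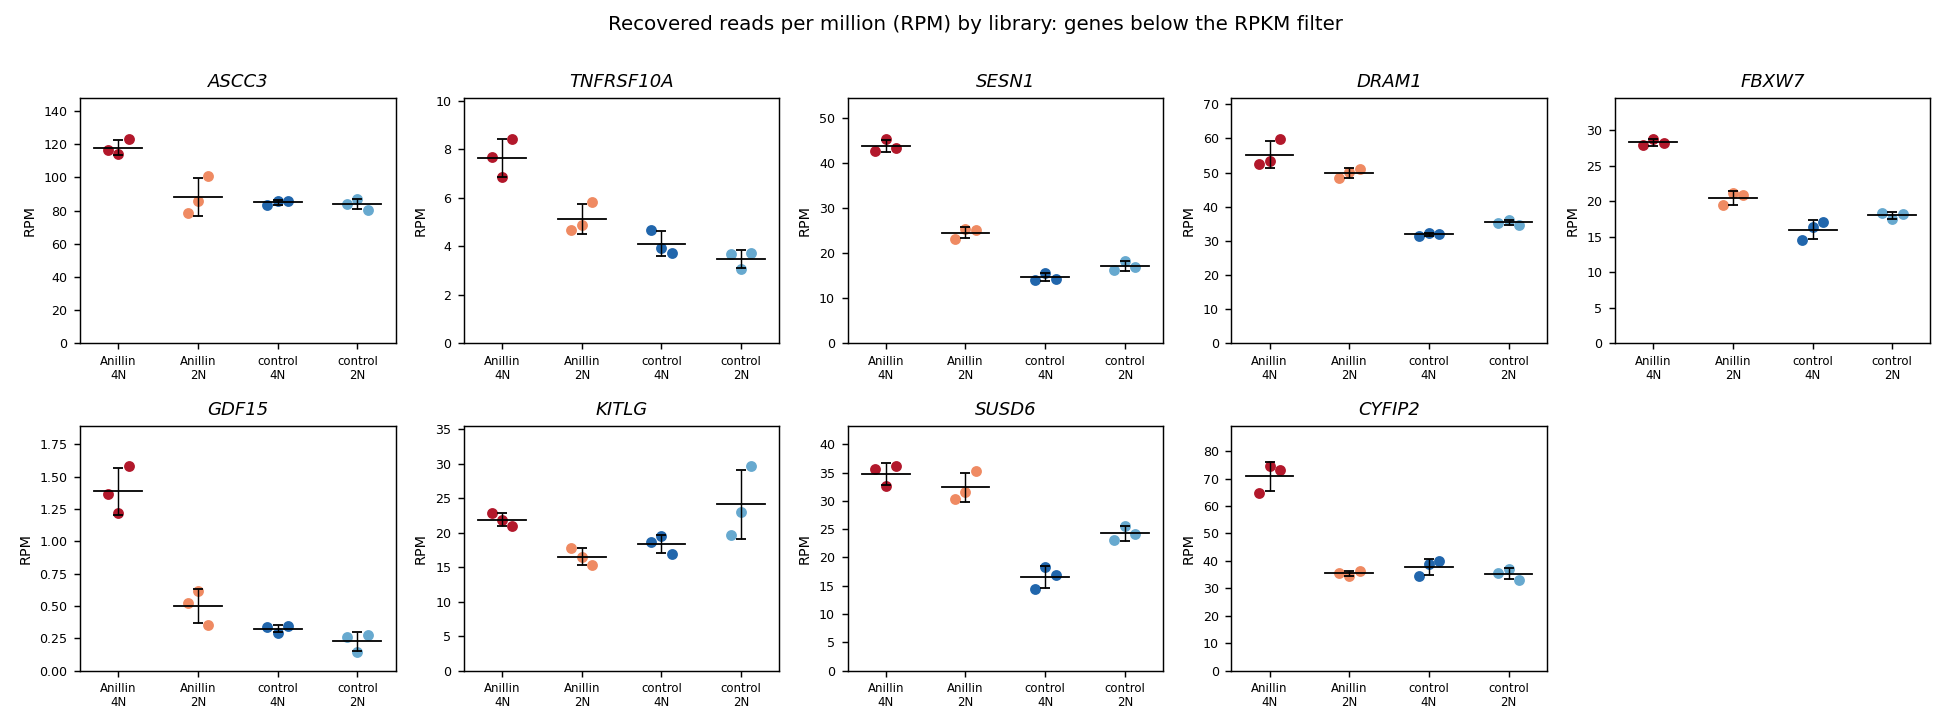
RPM of recovered reads in each library (points), group mean (line) and SD (bars, n = 3) for the 9 genes below the RPKM filter, the groups running from Anillin 4N at the left to control 2N at the right. SESN1 falls in steps, CYFIP2 and ASCC3 set Anillin 4N alone apart, DRAM1 and SUSD6 have both Anillin groups above the controls, and KITLG spreads most in control 2N, from 19.7 to 29.6 RPM.

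Set side by side, the signed effect of Anillin siRNA was more positive among 4N cells than among 2N cells for 33 of the 38 genes. This is on the read scale, with medians of 0.82 and 0.37. Among the 33 are PLK2, GADD45A and KITLG, whose effect was negative among 2N cells. Among 4N cells that of PLK2 was negative but smaller in size. Those of GADD45A and KITLG were positive there, with a fragile call for GADD45A, as given above, and no call for KITLG. The effects among 4N cells and among 2N cells share no library. Across the 38 genes they were related (Pearson r = 0.784, Spearman rho = 0.765), which is a description across genes of the same libraries and depths. The exceptions were DDB2, FAS, PERP, POLH and APAF1, whose signed effect was lower in value in 4N cells. For CYFIP2 and ASCC3 the effect among 2N cells did not pass on the read scale, whereas that among 4N cells did, and the difference itself passed, with interactions of 0.89 ± 0.09 for CYFIP2 (adjusted p = 3.52e-06) and 0.41 ± 0.10 for ASCC3 (adjusted p = 0.00648). The interaction of NINJ1, 0.28 ± 0.10 on the RPKM scale, did not pass (adjusted p = 0.0803) but did without Anillin 2N replicate 1 (0.0456) or control 2N replicate 2 (0.0413). On the read scale it passed at 0.30 (0.0378), but not without replicate 2 or 3 of either Anillin group, replicate 1 or 3 of control 2N or replicate 1 of control 4N (0.0678 to 0.106). That of ZMAT3 passed on the read scale at 0.39 (0.0315), but not without any 1 Anillin library or replicate 1 or 3 of control 4N (0.0506 to 0.0905). The largest interactions on the RPKM scale were those of FDXR at 0.80 ± 0.09 (adjusted p = 0.000297), TP53INP1, whose call was fragile as given above, and TRIAP1 at 0.57 ± 0.09 (adjusted p = 0.00228). On the read scale that of SESN1 was the largest among the 9 genes below the RPKM filter, at 1.05 ± 0.09 (adjusted p = 4.78e-07).

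**Figure D4:**
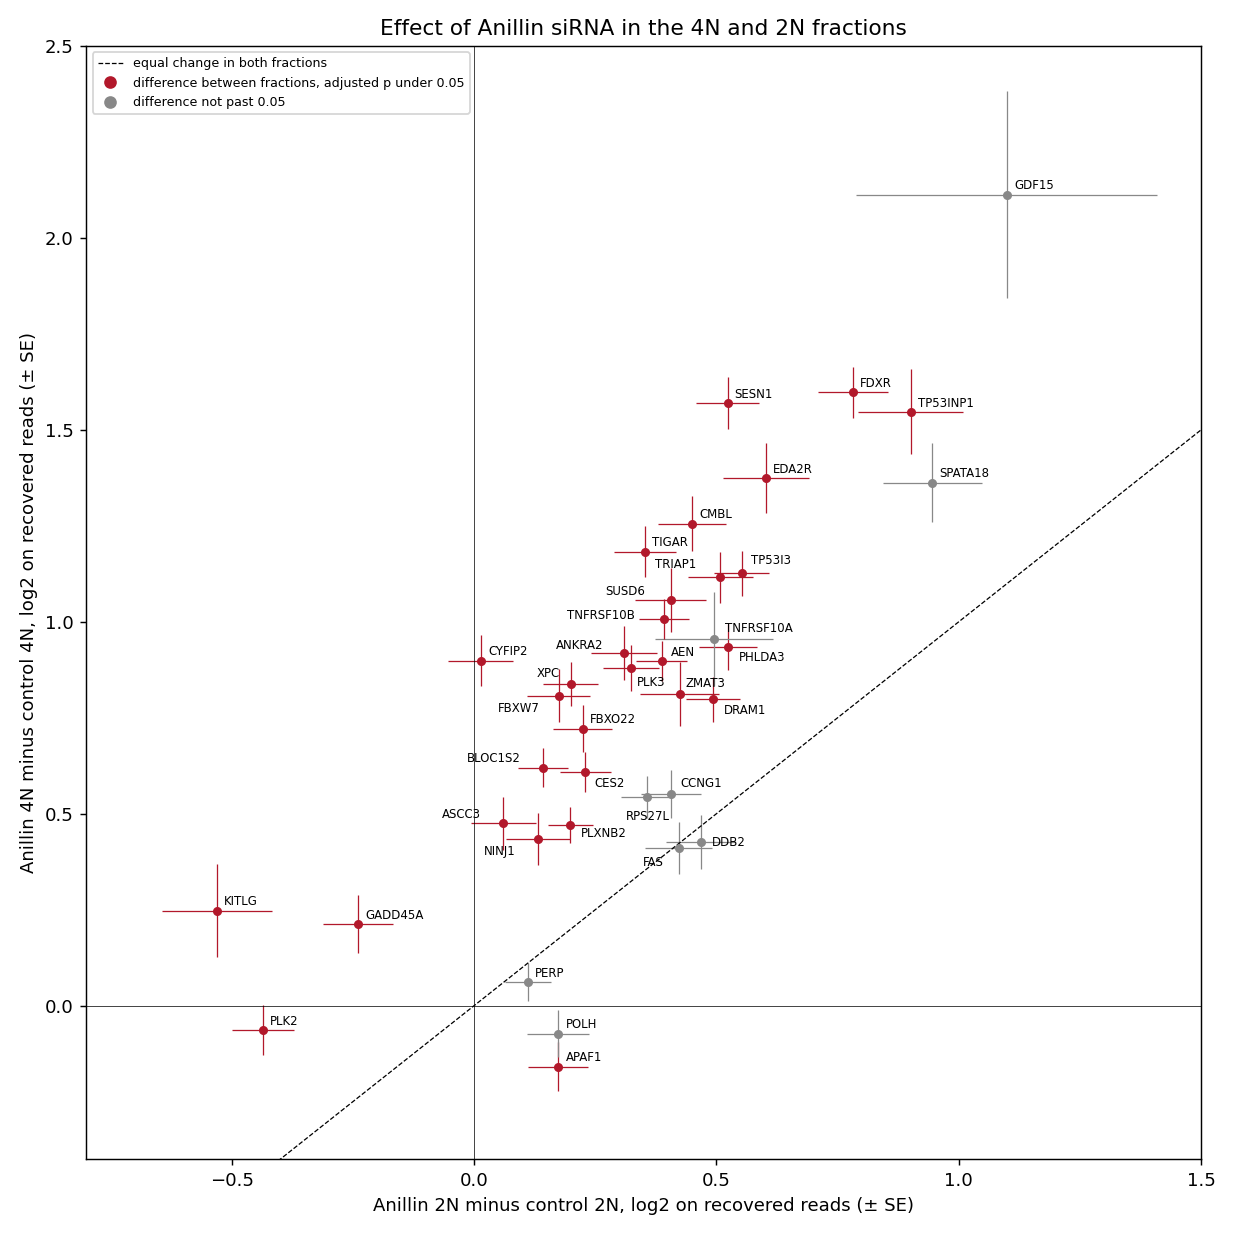
Log2 change on the read scale (± SE) in Anillin 4N minus control 4N (y axis) against Anillin 2N minus control 2N (x axis) for the 38 genes, red where the difference between the 2 changes had an adjusted p under 0.05. Of the 38 points, 33 lie above the dashed line of equal change, with CYFIP2 near 0 on the x axis and PLK2, GADD45A and KITLG left of 0.

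The same interaction can be read as the 4N minus 2N difference after Anillin siRNA against that in the control culture, so the count of 33 of 38 is the same by construction. The medians of these differences were 0.49 after Anillin siRNA and 0.04 in the control culture on the read scale, and the 2 differences share no library (Pearson r = 0.484, Spearman rho = 0.432 across the genes, as a description). Some genes moved in opposite directions in the 2 cultures. SESN1 and PLK3 were lower in control 4N than in control 2N, with the fragile calls given above, and rose in Anillin 4N against Anillin 2N by 0.84 ± 0.06 on the read scale (SESN1, adjusted p = 4.13e-08) and by 0.34 ± 0.05 on the log2 RPKM scale (PLK3, adjusted p = 0.00786). DDB2, FAS and POLH rose with DNA content in both cultures, and FDXR, AEN and CES2 did so too but by more after Anillin siRNA, by 1.26 ± 0.06 (FDXR, adjusted p = 8.58e-06), 0.71 ± 0.04 (AEN, adjusted p = 2.20e-05) and 0.52 ± 0.04 (CES2, adjusted p = 0.000102) on the log2 RPKM scale.

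Other genes of the p53 pathway, from a list of 50 of which 49 were matched and 39 passed the RPKM filter, are given for comparison. In Anillin 4N against control 4N, 26 rose, 3 fell and 10 did not pass on the RPKM scale, against 20.0% higher and 31.5% lower among all genes. Of the same genes 20 rose and none fell in Anillin 4N against Anillin 2N, also at an unadjusted p under 0.05 and by recovered reads, against 2.61% and 0.970%. The largest rises between the 4N groups were those of BTG2, an antiproliferative gene, at 1.63 ± 0.06 (adjusted p = 5.16e-08), CDKN1A at 1.44 ± 0.06 (adjusted p = 1.11e-07), MDM2 at 1.27 ± 0.06 (adjusted p = 1.08e-07) and BBC3 (PUMA), a proapoptotic BH3 protein, at 1.23 ± 0.06 (adjusted p = 2.77e-07), all on the log2 RPKM scale. Of the 3 that fell, DDIT4, an inhibitor of mTORC1 that also answers to hypoxia, changed by -0.30 ± 0.08 (adjusted p = 0.0112) and IKBIP by -0.18 ± 0.05 (adjusted p = 0.0146) on the same scale. The call of DDIT4 was lost with quantile scaling (0.0867), and that of IKBIP with quantile scaling (0.195) and without Anillin 4N replicate 1 (0.0577) or control 4N replicate 1 (0.0598).

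Of the 38 genes, 14 share bases with another protein-coding gene, mostly on the opposite strand, among them TP53I3, TP53INP1 and TRIAP1 over their whole span. TIGAR alone is overlapped on the same strand, over its whole span of 46831 bases. Whether counting used strand is not given in the sources used here. For these genes a part of the reads may belong to the neighbour.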

How the data were processed

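RNA was measured in 12 libraries, 3 for each of Anillin 4N, Anillin 2N, control 4N and control 2N, grouped by the sample labels. The authors deposited 1 table of RPKM values for 57773 Ensembl genes. Per the submitters' processing notes, CASAVA 1.8.2, TopHat2, edgeR and the hg19 build were used, without a role for each. For the counter, the annotation and strand use, nothing is given in the sources used here. A stranded mRNA kit was used per the labels' protocols, while another label field names total RNA with ribosomal RNA removed.

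The deposited RPKM values are per kilobase of genomic span, introns included, as tested against gene spans of GENCODE 29. Dividing out what 1 read is worth gave whole reads within 0.01 read for 29237 genes by span and for 9334 more, 12 of the 38 among them, by common divisor. RPKM by library was analysed as log2(RPKM + 0.5) with limma-trend (limma 3.58.1, R 4.3.3) on genes with at least 0.5 RPKM in at least 3 libraries. Recovered reads were analysed with limma-voom on genes reaching 10 reads in 3 or more libraries, with the authors' library scaling of 0.951 to 1.04. Each fit had 1 mean per group over all 4 groups, and tests were two-sided with Benjamini-Hochberg adjustment over all genes at 0.05. Both fits were tested on simulated data. Pairs of libraries in a group differed by more than sampling noise (chi-square per gene 2.38 to 14.5), so each counted once.

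The 38 genes, their roles, the marker lists and the other pathway genes (49 of 50 matched) were chosen with earlier results of these data known. All 38 genes are named; from the other pathway list, those with the largest rises and those that fell between the 4N groups are named, except 1 result that is not reported here. Alternatives were pseudocounts of 0.1 and 1, no filter, quantile and median-of-ratios scaling, only the groups compared, each library left out, and recovered reads. RefSeq promoter sequences are of GRCh38.p14, a later build than the hg19 of the deposited values. Figures were drawn with matplotlib 3.10.9 in Python 3.11.15.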

Additional observations from a re-analysis of the deposited data

Results flagged for a closer look

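The effect of Anillin siRNA differed between 4N and 2N cells, by the interaction test, for the following genes, given as interaction on the log2 RPKM scale. In repair these were XPC at 0.51 and GADD45A at 0.45, and in the death receptor group TNFRSF10B and EDA2R, both at 0.56. In apoptosis and survival they were AEN at 0.46, TP53I3 at 0.56, PHLDA3 at 0.40 and TRIAP1 at 0.57. In metabolism they were FDXR at 0.80, TIGAR at 0.49, TP53INP1 at 0.61, CMBL at 0.51 and CES2 at 0.36. TIGAR and CMBL reached the RPKM filter through the Anillin groups alone, where they are high, so their values here are only a description. Among kinases and ligases they were PLK2 at 0.37, PLK3 at 0.52 and FBXO22 at 0.37. Among surface and adaptor genes they were PLXNB2 at 0.26, BLOC1S2 at 0.44 and ANKRA2 at 0.50. The calls of GADD45A, TP53INP1 and PLK2 were fragile, being lost in 9, 9 and 10 of the fits that left out 1 library. The call of PLXNB2 was lost without control 4N replicate 1 (limma-trend, adjusted p = 0.0505).

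On the read scale the interaction also passed for genes below the RPKM filter, namely SESN1 at 1.05, CYFIP2 at 0.89, KITLG at 0.78, SUSD6 at 0.65, FBXW7 at 0.63, ASCC3 at 0.41 and DRAM1 at 0.30. The call of DRAM1 was lost without Anillin 4N replicate 3 (limma-voom, adjusted p = 0.0705). For PLK2, GADD45A and KITLG the positive sign went with a lower mean level in Anillin 2N cells than in control 2N cells, whether or not that change passed, and with no rise between the 4N groups that passed on the scale given.

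Of the other pathway genes named, MDM2 had 1.07, BTG2 0.87, BBC3 0.83, CDKN1A 0.79 and DDIT4 0.50 on the log2 RPKM scale. Unlike the others, DDIT4 had a lower mean after Anillin siRNA in both fractions. It averaged 27.2 RPKM in Anillin 2N against 47.9 in control 2N, and 37.9 in Anillin 4N against 46.9 in control 4N. The call of DDIT4 was lost without control 4N replicate 1 (limma-trend, adjusted p = 0.0503).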

How the results depend on the processing

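No gene result reversed under any alternative, meaning a change of sign with a call in either run. Counts over all genes did shift. With quantile scaling the larger side of the split changed between the 4N groups, between the 2N groups and in control 4N against control 2N, as given above. Of 270 gene results, 198 were called and 29 of these lost the call under at least 1 alternative, 26 of them through a left-out library. Counts of genes called lower moved most, over 29 genes on the RPKM scale and over all 38 on recovered reads, which added 9 genes. Between the 4N groups the count was 0 and became 1 on recovered reads. Between the 2N groups it was 1 and became 3 on recovered reads, with 1 to 2 when a library was left out. In control 4N against control 2N it was 4 and became 2 with only the groups compared and 8 on recovered reads (SESN1, KITLG and SUSD6 among the added genes), with 2 to 5 when a library was left out. For the interaction it was 0 and became 1 with quantile scaling and 1 on recovered reads. On recovered reads, leaving out a library gave 0 to 1 lower between the 4N groups, 1 to 3 in Anillin 4N against control 2N, 4 to 9 in control 4N against control 2N, and 0 to 2 for the interaction.

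Over all genes, those higher between the 4N groups numbered 2582, against 3945 with no filter and 4651 on recovered reads. In Anillin 4N against Anillin 2N, 336 were higher and 125 lower, against 576 and 329 on recovered reads, 194 lower with quantile scaling and 81 lower with only those groups. The 336 became 190 without Anillin 4N replicate 2, 211 without replicate 3 of the same group and 191 without Anillin 2N replicate 2. Between the 2N groups 1473 were higher and 2209 lower, against 937 and 1410 with only those groups and 2779 and 3620 on recovered reads. In control 4N against control 2N 1703 were lower, against 3887 on recovered reads and 1102 without control 4N replicate 1. In Anillin 4N against control 2N 1815 were higher and 2039 lower, against 2825 and 3322 on recovered reads. The interaction was positive for 636, against 1424 on recovered reads, 401 without Anillin 4N replicate 2 and 370 without control 4N replicate 1. Recovered reads tested more genes, and the other causes were not tested.

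No paired analysis was possible because the sample numbers are unique across the groups. Depth limited GDF15 most, and genes that share bases or sequence with a neighbour are uncertain.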
